A study of Rattus norvegicus with 10 samples.

Results

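The third complementarity-determining region (CDR3) of the immunoglobulin heavy chain was examined at its upper end of length, as all productive rearrangements whose CDR3 held 18 or more amino acids. By this rule, which counts residues only, 8131 distinct long CDR3 were found among 215200 distinct CDR3 of all lengths (3.78%). They were set against the 200710 distinct CDR3 of 7 to 17 residues, called mid-length here. As some CDR3 were found in several animals, the long CDR3 formed 8141 combinations of a CDR3 and an animal, and these hold 41729 of the 1615896 productive reads (2.58%).

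The data come from whole spleen cell suspensions of 10 outbred Wistar rats, which were littermates. Of these, 5 were immunized with recombinant human HuD, a neuronal RNA-binding protein, and 5 with keyhole limpet hemocyanin that carries dinitrophenyl groups (DNP). All 10 animals received Freund's complete adjuvant once and 3 boosts in incomplete adjuvant, and no animal without immunization was analysed here. Each animal gave 1 library, made from total RNA with a primer in the heavy chain constant domain that carried a Unique Molecular Identifier, and 1 sequencing run held them all. A read is a sequence collapsed by its tag, and there were 60647 to 259834 productive reads per animal. The reads are transcripts of a mixed cell population, so that fewer cells and less transcript per cell cannot be told apart.

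The heavy chain CDR3 is formed where a V, a D and a J gene (IGHV, IGHD and IGHJ) are joined, with bases trimmed from the gene ends and non-templated bases added between them. The V gene gives its first residues, the D gene most of its middle and the J gene its last residues, and the loop usually lies in the centre of the antigen-binding site. Long loops reach further from the surface, and in some species, such as cattle, very long ones are folded by cysteine bridges.

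Most long CDR3 were just beyond the limit of the rule. Of the combinations of CDR3 and animal, 6087 (74.8%) had 18 or 19 residues. There were 3921 distinct CDR3 of 18 residues, 2156 of 19, 1277 of 20, 353 of 21 and 153 of 22. Only 93 had 25 or more residues, and 89 of these rested on a single read (95.7%). The longest had 57, 58, 43, 55 and 52 residues in HuD1 to HuD5, and 34, 53, 23, 54 and 33 residues in DNP1 to DNP5. Each of these was a single read, and no CDR3 of more than 27 residues was read more than once, so that CDR3 of such length are not supported by a repeated observation. Next to the limit, 3921 distinct CDR3 had 18 residues and 8026 had 17, and the tyrosine share was 23.5% at 18 against 22.1% at 17 residues.

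**Figure D1:**
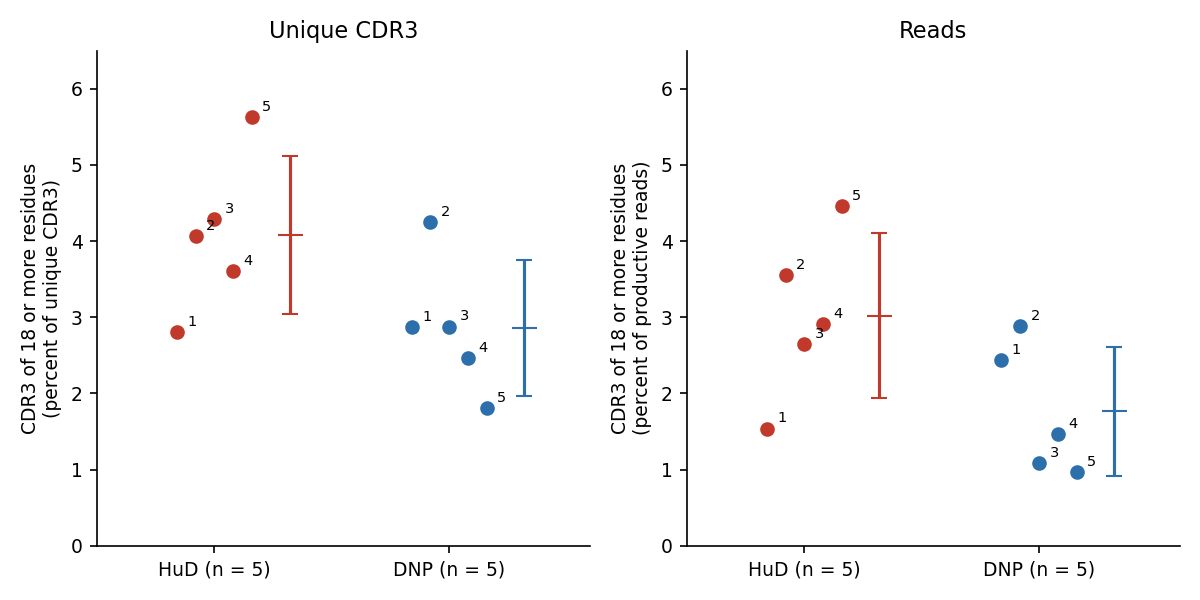
Long CDR3 (18 or more residues) as percent of unique CDR3 (left) and of productive reads (right), with 1 numbered point per animal and the mean with SD for 5 HuD and 5 DNP animals. The HuD animals lie between 1.54% and 4.46% of reads and the DNP animals between 0.962% and 2.88%, with overlap in both panels.

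The number of long CDR3 varied widely between animals of both groups. HuD1 to HuD5 had 487, 1617, 875, 1006 and 1553 unique long CDR3, and DNP1 to DNP5 had 446, 926, 189, 792 and 250. DNP3 had the fewest and also the smallest library, with 60647 productive reads. The share of productive reads that held a long CDR3 takes the library size into account. It was 1.54%, 3.56%, 2.65%, 2.91% and 4.46% in HuD1 to HuD5, against 2.44%, 2.88%, 1.08%, 1.46% and 0.962% in DNP1 to DNP5. The group means were 3.02% ± 1.08 in HuD animals and 1.76% ± 0.851 in DNP animals (SD, n = 5 each). The groups overlapped, since HuD1 lay below DNP1 and DNP2, and the difference of 1.26 percentage points did not pass the threshold of 0.05 (two-sided exact permutation test, p = 0.0635). It was 1.63 percentage points without HuD1 (exact permutation test, p = 0.0317) and 1.54 without DNP2 (p = 0.0397), so that its side of the threshold was decided by single animals.

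The share among unique CDR3 gave a similar picture. Long CDR3 were 4.08% ± 1.03 of the unique CDR3 in HuD animals and 2.85% ± 0.893 in DNP animals (SD, n = 5 each, exact permutation test, p = 0.103). With all libraries brought to 60647 reads by calculation, these shares were 4.10% ± 1.02 in HuD animals and 2.85% ± 0.916 in DNP animals. The plot of the shares shows the spread within each group, with HuD5 highest and DNP5 lowest on both measures.

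A long CDR3 was represented by fewer reads than a mid-length one. The mean number of reads per unique CDR3 was 4.95 ± 1.24 for long and 7.54 ± 1.35 for mid-length CDR3 (SD, n = 10 animals). The ratio of long to mid-length was below 1 in 10 of 10 animals, with a geometric mean of 0.649 and a range of 0.365 in DNP3 to 0.891 in DNP1 (exact sign-flip permutation test, p = 0.00195, the smallest it can give). CDR3 seen in a single read were 75.4% ± 6.68 of long and 75.3% ± 6.15 of mid-length CDR3, a difference that did not pass the threshold (SD, n = 10 animals, exact sign-flip permutation test, p = 0.830). CDR3 with at least 10 reads were 8.34% and 8.72%, which did not pass either (p = 0.371 in the same exact test). Among those with at least 10 reads, the median read number of an animal averaged 22.4 for long and 26.9 for mid-length CDR3, and was lower for long ones in 9 of 10 animals (exact sign-flip permutation test, p = 0.00586). Long reads also rested on fewer sequenced copies per tag, 1.14 ± 0.0803 against 1.59 ± 0.193, lower in 10 of 10 animals. The part of this difference in the read numbers was not tested.

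Few CDR3 carried much of the long repertoire in each animal. The most abundant long CDR3 took 5.11% to 27.3% of the long reads of its animal and the 10 most abundant together took 28.6% to 56.2%. The highest share belonged to DNP1, where a CDR3 of 18 residues with IGHV3-1 and IGHJ1 had 928 reads and was the twelfth most abundant CDR3 of any length. Its reads named IGHV3-1 in 97.8% of cases. In HuD4, a CDR3 of 19 residues with IGHJ2 and IGHD1-12 and 7 tyrosines had 847 reads, of which 73.8% named IGHV2-15 and the rest were spread over other genes, to 26 IGHV genes in all. In HuD5, the first was a CDR3 of 20 residues with IGHJ4 and IGHD1-6 and 563 reads, of which 39.4% named IGHV5-46.

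The most abundant long CDR3 of the other animals were also of 18 or 19 residues. HuD1, HuD2 and HuD3 had one with IGHV5-25 and IGHJ1 at 186, 408 and 563 reads. DNP2 had one with IGHV3-1 and IGHJ1 at 256 reads, and DNP4 one with IGHV5-22 and IGHJ1 at 462 reads. DNP3 and DNP5 had one with IGHJ2 and IGHD1-12, with IGHV5-17 at 73 reads and with IGHV5-31 at 142 reads. IGHJ1 was thus the J gene of the first-ranked long CDR3 in 6 of 10 animals, and 5 of these 6 ended in the same residues, YWYFDF.

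To show what these ends and centres look like, the most frequent short stretches of the long CDR3 are given in the one-letter amino acid code, from the amino end. The ends are the last 6 residues, mostly encoded by the J gene, and the capitals are whole residues. YWYFDF closed 1073 long CDR3, all with IGHJ1, or 13.2% of long against 4.42% of mid-length CDR3, with the long share higher in 10 of 10 animals. YYVMDA closed 470, all with IGHJ4, or 5.78% against 1.20% (higher in 8 of 10 animals). DWYFDF (2.26% against 0.968%) belonged to IGHJ1 as well, PYYFDY (1.86% against 0.677%) to IGHJ2 and YYAMDA (1.86% against 0.737%) to IGHJ4. YYAMDA was more frequent in long CDR3 in only 4 of 10 animals. In the middle, between the first 2 and the last 6 residues, the most frequent stretches of 4 residues were YYDG, in 22.2% of long and 1.62% of mid-length CDR3, DGSY (13.2% against 0.839%), YDGS (12.8% against 0.898%), YYYD (11.7% against 0.574%) and GSYY (11.5% against 0.622%). These 5 stretches overlap one another, at least 97.2% of their long carriers were assigned to IGHD1-12, and a longer middle has more places to hold any stretch. Both kinds of stretch are given as descriptions, with no test.

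**Figure D2:**
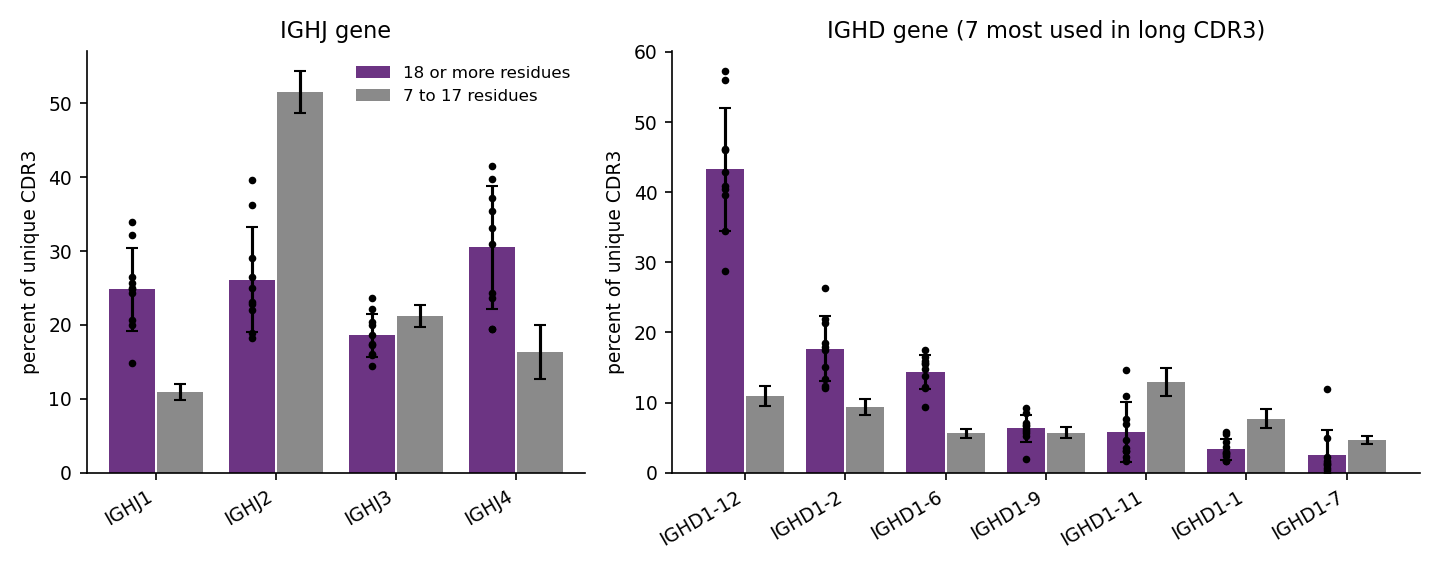
IGHJ genes and the 7 IGHD genes most used in long CDR3, as percent of unique CDR3. Bars are means over 10 animals with SD for long (purple) beside 7 to 17 residues (grey), and points are the single animals for long CDR3. IGHJ1 (24.8% against 10.96%), IGHJ4 (30.5% against 16.3%) and IGHD1-12 (43.3% against 10.9%) are higher in long CDR3, and IGHJ2 (26.1% against 51.5%) is lower.

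J gene use differed between the length classes for every IGHJ gene, 4 of 4 (100%). IGHJ1 was used by 33.9%, 32.2%, 26.5%, 24.95% and 14.8% of the unique long CDR3 of HuD1 to HuD5, and by 24.9%, 25.7%, 20.6%, 24.4% and 20% in DNP1 to DNP5. The mid-length CDR3 of the same animals lay between 9.65% and 12.5%, below all of these values. On average IGHJ1 reached 24.8% ± 5.59 of long against 10.96% ± 1.07 of mid-length CDR3 (SD, n = 10 animals). IGHJ4 was also higher, at 30.5% ± 8.26 against 16.3% ± 3.62, with 19.4% to 41.5% per animal. IGHJ2, the J gene of 51.5% ± 2.89 of mid-length CDR3, was found in 26.1% ± 7.06 of long ones. These differences had the same direction in 10 of 10 animals (exact sign-flip permutation test, adjusted p = 0.0026 over the 4 genes). IGHJ3 was lower in long CDR3 in 7 of 10 animals, at 18.6% ± 2.93 against 21.2% ± 1.47 (adjusted p = 0.0254 in the same exact test). Next to the limit of the rule, the pooled shares at 18 and 17 residues were 24.9% and 23.1% for IGHJ1, 29.9% and 30.2% for IGHJ2 and 26.6% and 24.5% for IGHJ4. Weighted by reads, the differences kept their directions and stayed past the threshold, with 25.6% against 8.92% for IGHJ1 and 33.1% against 53.7% for IGHJ2.

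Among the D genes, IGHD1-12 stood out in long CDR3. IGHD genes were added to the comparison after their values had been seen. IGHD1-12 was assigned to 34.5%, 42.9%, 57.3%, 46.2% and 56.0% of the long CDR3 of HuD1 to HuD5, and to 28.7%, 40.5%, 46.0%, 40.9% and 39.6% in DNP1 to DNP5. In mid-length CDR3 no animal exceeded 13.3%, so that every long value lay above every mid-length value. The mean was 43.3% ± 8.76 for long and 10.9% ± 1.38 for mid-length CDR3 (SD, n = 10 animals), a ratio of 3.96. Along the length, the share was 8.71% at 12 residues, 36.6% at 17, 41.2% at 18, 57.8% at 21 and 44.4% at 22 residues.

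Of 33 IGHD genes, 28 passed the threshold (84.8%), 3 higher in long CDR3 (9.09%) and 25 lower (75.8%), with an adjusted p of 0.0028 for each gene named here as higher or lower (exact sign-flip permutation test). Beside IGHD1-12, the higher genes were IGHD1-2 (17.7% ± 4.64 against 9.36% ± 1.14) and IGHD1-6 (14.3% ± 2.47 against 5.62% ± 0.623), each in 10 of 10 animals. IGHD1-9 did not pass, at 6.31% against 5.72% (adjusted p = 0.395). Among the lower ones were IGHD1-11 (5.82% against 12.9%), IGHD1-4 (1.25% against 6.85%), IGHD4-3 (0.628% against 6.51%) and IGHD5-1 (0.263% against 4.23%). No IGHD gene could be named for 0.0853% of long and 1.51% of mid-length CDR3. Shares within a class add up to the whole, so that a gene that takes more leaves less for the others.

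**Figure D3:**
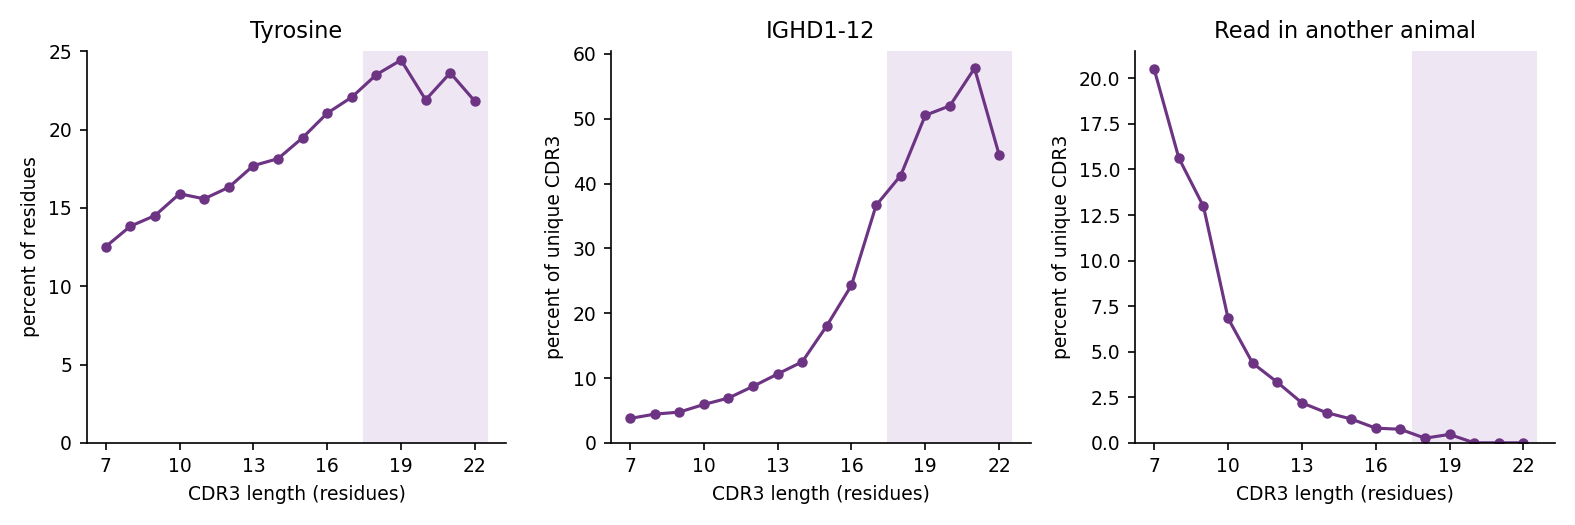
Tyrosine as percent of residues, IGHD1-12 as percent of unique CDR3 and unique CDR3 also read in another animal, by CDR3 length from 7 to 22 residues over all animals, with long CDR3 shaded. IGHD1-12 reaches 57.8% at 21 residues and is 44.4% at 22, and the share found in another animal is 20.5% at 7 residues and 0.255% at 18.

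Few V genes differed between the length classes. Long CDR3 used 81 IGHV genes and mid-length ones 136, among 8141 and 206742 combinations of CDR3 and animal. More genes are seen among more CDR3, and these numbers were not brought to equal size. The 6 most used genes made up 50% of the long CDR3. These included IGHV5-25 (13.0% ± 4.22 of long against 11.2% ± 3.84 of mid-length CDR3), IGHV5-31 (9.15% ± 4.10 against 8.33% ± 2.92) and IGHV5-20 (8.13% ± 2.48 against 9.10% ± 2.17). The IGHV5 subgroup held 75.1% ± 6.02 of long and 72.7% of mid-length CDR3 (exact sign-flip permutation test, adjusted p = 0.462 over the 10 subgroups). IGHV6, IGHV4 and IGHV10 were lower in long CDR3 in 10 of 10 animals, 3 of 10 subgroups (30%). Their shares were 0.0348% against 1.00% for IGHV6, 1.15% against 2.76% for IGHV4 and 0.0437% against 0.437% for IGHV10 (adjusted p = 0.00651 for each in the same exact test).

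By single gene, 10 of 66 IGHV genes passed the threshold in edgeR's quasi-likelihood test with the animal as block (15.2%). All 10 were lower in long CDR3. None was higher, also at an unadjusted p under 0.05, and DESeq2 gave none higher past the threshold and 1 at an unadjusted p under 0.05. IGHV1-52, named after its values were seen, was higher when weighted by reads (edgeR adjusted p = 0.0128) and with no filter on low counts (edgeR adjusted p = 0.0270). It had 6 long and 2 mid-length CDR3, all of them in HuD3, with 105 and 2 reads, and was too rare for the filter in the test above. The count depended on the scaling, with 5 genes (7.58%) when class totals replaced TMM factors and 2 genes (3.03%) in DESeq2. TMM moved the median log2 fold change of all 66 genes to -0.50, against -0.26 with class totals and -0.04 in DESeq2, and each gene has to be read against this shift. IGHV4-2, the best covered of them, had 99 long and 5695 mid-length CDR3, a log2 fold change of -1.40 (SE 0.31, edgeR adjusted p = 0.000967) and a lower share in 10 of 10 animals. It passed under all 3 scalings, but not against CDR3 of 12 to 17 residues (log2 fold change -0.69, edgeR adjusted p = 0.389), where only IGHV6-6 and IGHV6-8 did. Leaving out single animals, the count fell to 5 without HuD1, HuD4, HuD5, DNP3 or DNP4 and to 6 without HuD2 or DNP5. Between 63 and 66 genes were tested in these fits.

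The other genes that passed with TMM and with class totals were seldom seen in long CDR3. IGHV6-6 had 3 long CDR3 and 979 mid-length ones, a ratio of shares of 0.0778 with a 95% interval of 0.0160 to 0.227 for counting error only. IGHV6-8 had no long and 487 mid-length CDR3, which makes its share at least 6.39-fold lower at a floor of 3 counts over all animals. IGHV2-77 had 1 long and 278 mid-length CDR3 (ratio 0.0913, 95% interval 0.00231 to 0.509), and IGHV10-5 had 4 and 505 (log2 fold change -2.47, edgeR adjusted p = 0.00494). The other 5 genes, IGHV10-4, IGHV6-13, IGHV5-54, IGHV2S61 and IGHV2-6, passed only with TMM, with 0, 0, 4, 9 and 27 long CDR3. The first gene named by the annotation was used. Long CDR3 with at least 10 reads had 34.6% ± 10.9 of their reads under another IGHV gene than their main one, against 31.1% ± 10.6 for mid-length ones (SD, n = 10 animals, exact sign-flip permutation test, p = 0.236).

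**Figure D4:**
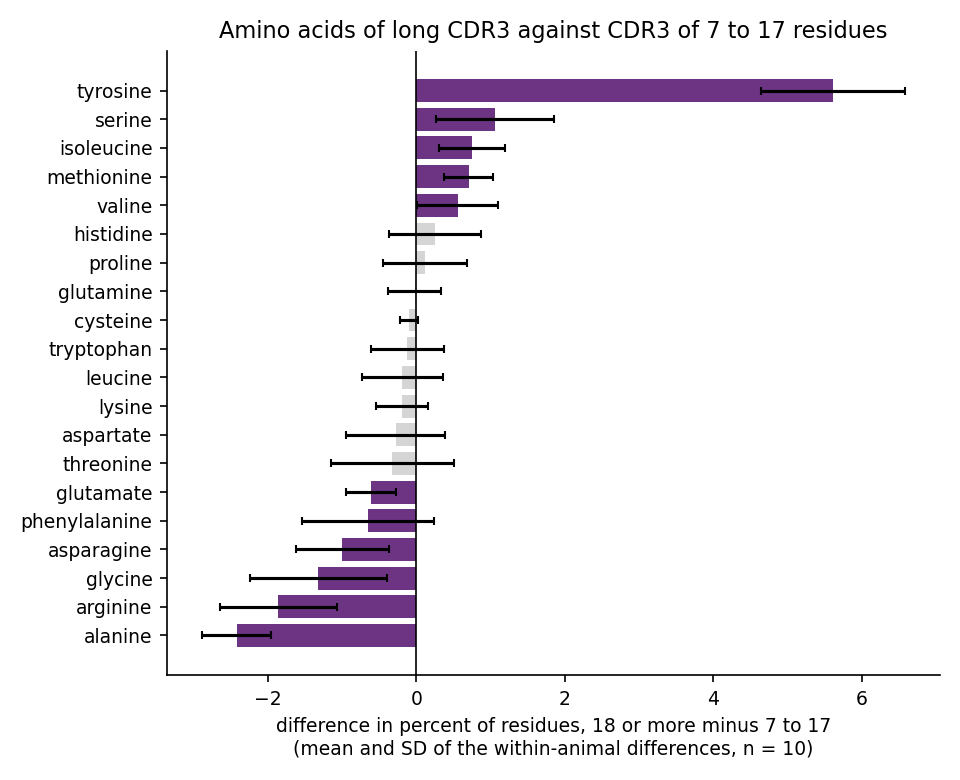
Amino acids as percent of all residues of the unique CDR3, long minus 7 to 17 residues. Bars are means of the differences within 10 animals with SD, purple where past the threshold and grey where not. Tyrosine is higher by 5.61 percentage points on average, in 10 of 10 animals, and alanine is lower by the largest amount.

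Long CDR3 were richer in tyrosine, a residue common in antigen contacts, and poorer in glycine, the smallest and most flexible one. Tyrosine made up 22.003%, 22.8%, 22.9%, 25.4% and 23.5% of the residues of long CDR3 in HuD1 to HuD5, and 21.5%, 24.2%, 22.6%, 22.9% and 21.3% in DNP1 to DNP5. The mid-length CDR3 lay between 15.7% and 17.8%, without overlap. The means were 22.9% ± 1.23 for long and 17.3% ± 0.708 for mid-length CDR3 (SD, n = 10 animals, exact sign-flip permutation test, adjusted p = 0.00558 over 20 amino acids). A long CDR3 held 4.43 tyrosines on average against 2.11, and 64 of 8131 held none. These counts also rise with length itself, which averaged 18.97 residues in long and 12.09 in mid-length CDR3. Glycine was lower in 9 of 10 animals, at 8.37% ± 0.975 against 9.69% ± 0.311 (adjusted p = 0.0117 in the same exact test). Its values in long CDR3 were between 6.75% and 9.91% and overlapped those of mid-length CDR3, 9.24% to 10.2%.

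In all, 11 of 20 amino acids passed the threshold (55%), 5 of them higher in long CDR3 (25%) and 6 lower (30%). After tyrosine, the higher ones were serine by 1.07, isoleucine by 0.75, methionine by 0.71 and valine by 0.56 percentage points. Alanine fell by 2.42, arginine by 1.86, asparagine by 0.99, phenylalanine by 0.65 and glutamate by 0.61 percentage points. With the first 2 and last 4 residues left off, phenylalanine turned to 0.74 percentage points higher (8 of 10 animals, exact sign-flip permutation test, adjusted p = 0.0355). Alanine was then lower by only 0.66 and arginine by 1.05, both still past the threshold. The falls of asparagine and glutamate grew to 2.43 and 1.55. Serine was higher by 0.51 and did not pass (adjusted p = 0.234 in the same exact test). Within J genes, methionine differed by -0.0752 and did not pass (adjusted p = 0.372 in the same exact test). Arginine is the main basic residue of the CDR3. The mean net charge per CDR3, a sum over its residues, was -0.647 for long and -0.272 for mid-length CDR3. It was lower for long CDR3 in 10 of 10 animals (exact sign-flip permutation test, p = 0.00195), and was not adjusted for length. Weighted by reads, 3 of 20 amino acids passed, which were tyrosine, alanine and arginine, and glycine did not (exact sign-flip permutation test, adjusted p = 0.0949). Runs of 3 or more tyrosines were present in 34.7% ± 6.47 of long and 5.82% ± 1.18 of mid-length CDR3 (10 of 10 animals), where a longer CDR3 also has more places for a run. Sequons for N-glycosylation were rare in both classes, at 0.742% ± 0.534 and 0.847% ± 0.154 (p = 0.518 in the same exact test).

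Where the tyrosines lay also differed. Counted from the amino end, tyrosine was at position 6 in 38.3% ± 6.28 of long and 20.9% ± 1.61 of mid-length CDR3 and at position 7 in 40.4% ± 8.34 against 21.02% ± 1.80 (SD, n = 10 animals). The gaps were smaller at position 8 (30.3% against 22.1%) and position 10 (29.8% against 26.4%). At positions 5 and 9 long CDR3 had less, with 20.6% against 21.7% and 23.2% against 26.7%. At positions 1 to 4 no more than 3.47% of long CDR3 had one on average, against up to 7.96% of mid-length ones. At the last position the order was turned round, with tyrosine in 39.4% ± 6.62 of long against 63.0% ± 3.34 of mid-length CDR3. The common IGHJ2 end above closes in tyrosine, while the common IGHJ1 and IGHJ4 ends do not. Abundant long CDR3 with IGHJ3 also closed in tyrosine, with PGWFTY in HuD1 and YALFAY in HuD3. Whether J gene use accounts for the order at the last position was not tested. With the first 2 and last 4 residues left off, tyrosine was 27.2% of long and 17.9% of mid-length CDR3 and glycine 11.8% and 16.0%, both past the threshold.

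The gain in tyrosine was present within J genes. Tyrosine was 23.1% against 17.2% in IGHJ1, 26.0% against 19.7% in IGHJ2, 19.9% against 15.7% in IGHJ3 and 22.2% against 12.5% in IGHJ4, all past the threshold (exact sign-flip permutation test, adjusted p of 0.0078 to 0.0141). Glycine was lower within IGHJ2 (adjusted p = 0.0301) and IGHJ3 (adjusted p = 0.0141), while it differed by 0.35 percentage points in IGHJ1 (adjusted p = 0.640) and by -0.46 in IGHJ4 (adjusted p = 0.170), in the same exact test. Within the 4 most used D genes, a comparison added after seeing the data, the difference was smaller. It was 26.3% against 23.3% in IGHD1-12 (8 of 10 animals, adjusted p = 0.0365), 21.3% against 17.8% in IGHD1-2 (8 of 10, adjusted p = 0.0365) and 23.5% against 20.3% in IGHD1-6 (9 of 10, adjusted p = 0.0313), in the same exact test. In IGHD1-9 it was 21.2% against 22.1% and did not pass (adjusted p = 0.469). Averaged over these D genes, tyrosine was higher by 2.20 percentage points (exact sign-flip permutation test, p = 0.00195), while glycine differed by -0.29 (p = 0.316) and passed in none of them.

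Cysteine was uncommon in long CDR3. It made up 0.343% ± 0.0936 of their residues against 0.437% ± 0.0880 in mid-length CDR3 (lower in 8 of 10 animals, exact sign-flip permutation test, adjusted p = 0.0716). The share of CDR3 with at least 1 cysteine was 5.75%, 7.67%, 5.60%, 5.86% and 4.70% in long CDR3 of HuD1 to HuD5, and 8.52%, 5.51%, 2.65%, 7.32% and 7.60% in DNP1 to DNP5. On average it was 6.12% ± 1.72 of long and 4.94% ± 0.914 of mid-length CDR3, higher in 8 of 10 animals but not past the threshold (exact sign-flip permutation test, p = 0.0859). A longer CDR3 has more places for a cysteine, and shares of CDR3 with a cysteine were not adjusted for length. Without DNP3 the difference was 1.55 percentage points (exact permutation p = 0.0195), against 1.18 with all animals. At least 2 cysteines, the minimum for a bridge within the loop, were found in 23 of 8131 long CDR3, and the mean shares were 0.360% ± 0.328 against 0.322% ± 0.181 (p = 0.791 in the same exact test).

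Long CDR3 were seldom found in more than 1 animal. Only 10 of 8131 distinct long CDR3 (0.123%) were read in another animal, each in 2 animals, against 4325 of 200710 mid-length ones (2.15%). Of the CDR3 of an animal, 0.438% ± 0.530 of the long and 5.45% ± 1.36 of the mid-length ones were shared (SD, n = 10 animals). The long share was 0, 0, 0.229%, 0.199% and 0.129% in HuD1 to HuD5, and 0.224%, 0.432%, 1.59%, 0.379% and 1.20% in DNP1 to DNP5, and no animal reached the 4.18% of the lowest mid-length value. The count of 0 allows a share of up to 0.616% in HuD1 and 0.186% in HuD2. As a shared CDR3 counts in each of its animals, no test was made. Among CDR3 with at least 10 reads, 0.747% of the long and 8.91% of the mid-length ones were shared. None of the 2054 CDR3 of 20 or more residues was shared, which allows a share of up to 0.146%. Along the length, 0.745% were shared at 17 residues, 0.255% at 18 and 0.463% at 19.

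The shared long CDR3 had 18 or 19 residues, 5 of each, and used IGHJ1 (4), IGHJ4 (4) and IGHJ2 (2). In 8 of 10 the animal with fewer reads had a single read, and in 3 both had. The most reads in the animal with fewer were 3, for a CDR3 with IGHV5-25, IGHJ4 and 7 tyrosines at 149 reads in DNP1 and 3 in DNP3. DNP5 and DNP2 shared one of 18 residues with IGHV5-31, IGHJ2 and IGHD1-12, 7 tyrosines and the end RYYFDY, at 142 and 2 reads. It was the only one with a tag in common between its animals, 1 tag, and also had a whole variable domain in common. The tag includes 10 CDR3 bases, so that reads with equal CDR3 bases can differ in it only by its short random part. How often a tag recurs by chance was not tested. The authors looked for reads of equal sequence and barcode across their samples and reported none. Whether the common tag and the common variable domain lay in the same reads is not given here. Whether reads passed between libraries of the run was not tested. DNP4 and DNP3 shared a CDR3 with IGHV2-63 and IGHJ4 at 311 reads and 1 read. HuD5 and DNP2 shared one of 19 residues at 265 reads and 1 read, including 1 whole variable domain. DNP4 and DNP3 also had one with IGHV1-43 and IGHJ1 in common, at 6 reads and 1 read.

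In the other 5, the animal with fewer reads had 1 read. DNP2 and HuD3 shared one at 24 reads and 1 read under different IGHV genes, IGHV3-3 and IGHV5-34, and HuD3 and HuD4 one with IGHV5-7 at 2 reads and 1 read. The other 3 had 1 read in each animal and different IGHV genes. In all, 5 of the 10 had the same main IGHV gene in both animals. Animals of the same antigen held 6 of the 10, of which 5 were within DNP and 1 within HuD, and mixed pairs held 4, where 20 of the 45 pairs of animals were of the same antigen. Scaled to the repertoire sizes, the overlap was 0.0700% in pairs of the same antigen and 0.0183% in mixed pairs, and the difference of 0.0517 percentage points did not pass (one-sided exact permutation test, p = 0.0794). It was 0.129% within DNP but 0.0107% within HuD, below the mixed pairs. DNP3, with only 189 long CDR3, and DNP4 had the highest value, 0.517%. For mid-length CDR3 the overlap was 1.26% in pairs of the same antigen and 0.776% in mixed pairs, a difference that passed (p = 0.00794 in the same exact test). The difference in long CDR3 was 0.0108 without DNP3 (p = 0.333) and 0.0182 without DNP4 (p = 0.230 in the same exact permutation test), and passed without HuD5 (0.0768) and without DNP2 (0.0665), both at an exact permutation p of 0.0317.

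**Figure D5:**
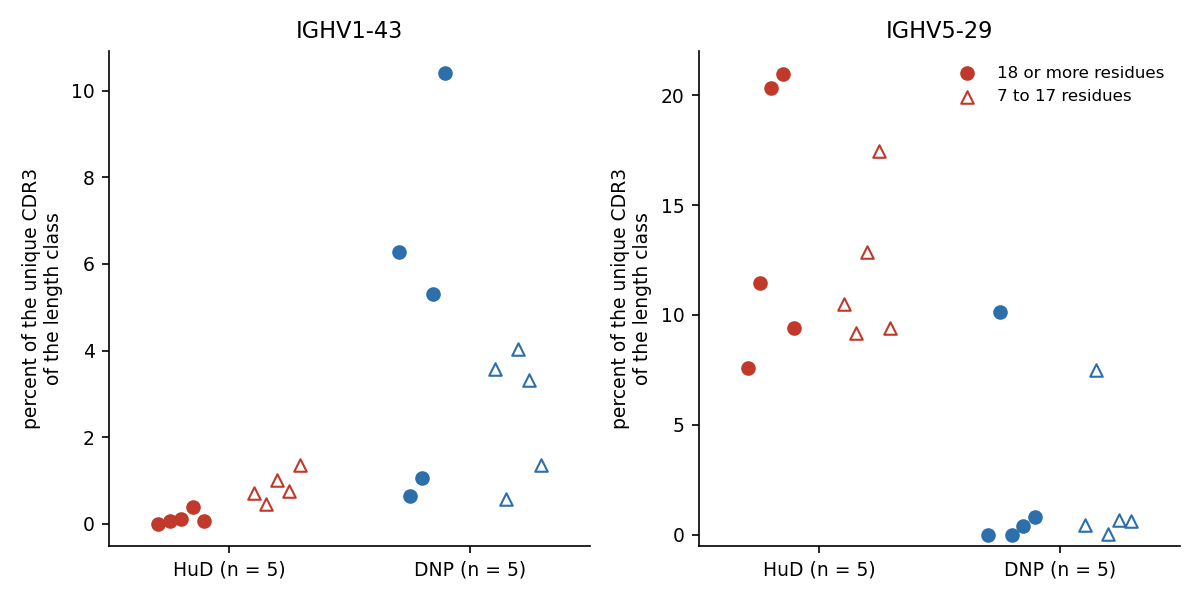
IGHV1-43 (left) and IGHV5-29 (right) as percent of the unique CDR3 of a length class, with 1 symbol per animal for HuD and DNP animals, filled for long CDR3 and open for 7 to 17 residues. Long IGHV1-43 CDR3 reach at most 0.398% in HuD animals and at least 0.648% in DNP animals. For IGHV5-29, DNP2 lies among the HuD animals in long CDR3. At 7 to 17 residues DNP2 (7.49%) lies below the lowest HuD animal (9.19%).

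Between the antigens, 1 of 36 IGHV genes differed among the long CDR3 in edgeR (2.78%), and it was lower in HuD. This was IGHV1-43, with 0, 1, 1, 4 and 1 unique long CDR3 in HuD1 to HuD5, and 28, 6, 2, 42 and 26 in DNP1 to DNP5. These numbers overlapped in that HuD4 had more than DNP3, whose library was the smallest. As shares of the long CDR3 of an animal they did not overlap, with at most 0.398% in HuD animals and at least 0.648% in DNP animals. The share was 0.128% ± 0.156 in HuD animals and 4.74% ± 4.03 in DNP animals (SD, n = 5 each), with a log2 fold change of -4.60 (SE 0.90, edgeR quasi-likelihood test, adjusted p = 0.00670). In reads it was 14 in all HuD animals and 597 in all DNP animals. Among mid-length CDR3 the gene took 0.858% ± 0.337 in HuD animals and 2.58% ± 1.52 in DNP animals, a log2 fold change of -1.30 that did not pass (edgeR adjusted p = 0.183). The difference between these fold changes was not tested. Of the 111 long IGHV1-43 CDR3, counted per animal, 54 used IGHJ3 and 39 IGHJ1, and 57 carried IGHD1-2. With at least 2 reads required per CDR3, no gene passed (edgeR, 3 of 21 genes at an unadjusted p under 0.05).

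The following 2 genes were chosen after their values were seen. IGHV5S11 had 1, 1, 3, 0 and 4 long CDR3 in HuD animals against 11, 2, 7, 12 and 6 in DNP animals. Its mean share was 0.174% in HuD and 2.06% in DNP animals among long CDR3. Among mid-length CDR3 it was 0.118% and 1.62%, a contrast in the same direction. Among long CDR3, IGHV5S11 passed with class totals (edgeR adjusted p = 0.0296, 1 of 2 genes past the threshold, 5.56%, both lower in HuD). It also passed in DESeq2 (adjusted p = 0.0166, 1 of 2 lower genes, 5.56%, among 3 called, 8.33%). With TMM it did not pass (edgeR adjusted p = 0.0836), except without DNP2 (edgeR adjusted p = 0.0130) and with the replicate number as block (edgeR adjusted p = 0.0423). Same-numbered animals are different animals, so that this block has no basis in the design. IGHV5-29 had 37, 185, 178, 211 and 146 in HuD animals and 0, 94, 0, 3 and 2 in DNP animals, where DNP2 stood apart from the other DNP animals. Its mean share was 13.95% in HuD and 2.27% in DNP animals among long CDR3. Among mid-length CDR3 it was 11.9% and 1.85%, so that the contrast was not particular to long CDR3. Among long CDR3, IGHV5-29 did not pass with TMM and all animals (edgeR adjusted p = 0.282), but passed with no filter on low counts (edgeR adjusted p = 0.0358). With the replicate number as block, which has no basis in the design, it passed as well (edgeR adjusted p = 0.0416). At 20 or more residues it was the 1 gene that passed, with a log2 fold change of 3.03 (edgeR adjusted p = 0.00409). Without DNP2, 7 of 34 genes passed, 5 higher and 2 lower in HuD, and IGHV5-29 was among the higher ones with a log2 fold change of 5.89.

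J genes, D genes and amino acids of the long CDR3 did not differ between the antigens past the threshold. For the J genes 0 of 4 passed (0%, exact permutation test, lowest adjusted p = 0.810, none at an unadjusted p under 0.05). For the amino acids 0 of 20 passed (0%, lowest adjusted p = 0.212), with 3 at an unadjusted p under 0.05, and for the D genes 0 of 33 (0%, lowest adjusted p = 0.611), with 2. Tyrosine was 23.3% ± 1.26 in HuD and 22.5% ± 1.17 in DNP animals (SD, n = 5 each, exact permutation test, adjusted p = 0.651). IGHD1-12 was 47.4% ± 9.49 in HuD and 39.1% ± 6.36 in DNP animals (adjusted p = 0.815 in the same exact test). The differences between long and mid-length CDR3 were likewise compared between the antigens for 7 measures, and none passed (exact permutation test, lowest adjusted p = 0.819).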

How the data were processed

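Heavy chain transcripts of spleen cells of 10 rats were analysed, 5 per antigen, with the groups taken from the sample labels. The authors merged read pairs with PEAR, collapsed them with MIGEC by a tag that includes 10 CDR3 bases, and annotated them with High-VQuest, whose version is not given in the sources used here. Each deposited line is 1 collapsed sequence, used as 1 read, and its deposited count of sequenced copies served only as an alternative.

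Productive lines were grouped by animal and CDR3 (dots removed). IGHV, IGHD and IGHJ are the first gene named, taken as the most frequent of a CDR3 in its animal. For differences between length classes, the signs of the 10 animals were flipped in an exact permutation test (smallest p 0.00195), and differences between antigens by exact permutation over the 252 relabellings (smallest two-sided p 0.00794). The p-values are two-sided unless stated. IGHV numbers were tested with edgeR 4.0.16 (quasi-likelihood, TMM) in R 4.3.3, with at least 100 unique CDR3 per gene between classes and at least 20 long ones between antigens, and with DESeq2 1.42.0 as an alternative. Benjamini-Hochberg adjustment and a threshold of 0.05 were used. In counts simulated without a difference between the length classes, TMM gave calls and class totals did not, so that both are reported. Other steps used scipy 1.17.1, pandas 2.3.3, numpy 2.4.6 and matplotlib 3.10.9 in Python 3.11.15. The scripts were tested on simulated data.

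Alternatives were a limit of 20 residues, a comparison with 12 to 17 residues, at least 2 or 10 reads, intact ends, 1 CDR3 per cluster of near-identical CDR3, reads or copies as weight, other scalings, no filter on low counts and leaving out each animal. Named were all IGHJ genes and amino acids, up to 10 IGHV genes past the threshold, the most abundant, longest and shared CDR3, and the 5 most frequent ends and stretches. The members and lists were chosen with earlier results of these data known. Intervals and floors cover counting error only. Full CDR3 sequences are not printed here.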

Additional observations from a re-analysis of the deposited data

Results flagged for a closer look

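In 5 of 72 groups of 5 animals tried, 1 animal lay far from the other 4, measured by its gap to the nearest other animal over the range of the group. Chance gives such a value in about 5% of groups. Among the long CDR3 of HuD animals, HuD4 had a run of 3 or more tyrosines in 49.0% (group median 36.3%). HuD3 had a histidine share of 3.45% of residues (median 2.39%), HuD2 an asparagine share of 1.36% (median 1.80%), HuD1 a glutamine share of 1.70% (median 0.915%) and HuD5 a valine share of 5.14% (median 3.72%). All 5 were HuD animals, each on a different measure, and the cause was not tested.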

How the results depend on the processing

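Of 214 alternative values of the main results, 177 were kept and 37 were not. Kept means the same direction and side of the threshold, or a count within 1.5 times. For the sharing difference between the length classes, which had no test, it means a change smaller than the SD of the differences over animals. Leaving out each animal in turn, the HuD minus DNP difference was 0.897 to 1.63 percentage points for the read share of long CDR3 and 0.839 to 1.57 for the unique share, which passed without HuD1 (1.54) and without DNP2 (1.57, exact permutation p = 0.0317 for both). The single-read difference was 0.10, turned to -0.604 with 1 CDR3 per cluster, and was -0.226 to 0.332 without single animals. Weighted by reads, 3 of 20 amino acids passed in place of 11: tyrosine, alanine and arginine. Phenylalanine was higher in long CDR3 by 0.74 without the ends, past the threshold, and methionine differed by -0.0752 within IGHJ genes. The difference in CDR3 with a cysteine, not adjusted for length, passed with intact ends (1.52) and with clusters (1.34), and was 0.749 to 1.55 without single animals. The sharing difference of -5.01 was -1.95 against 12 to 17 residues and -8.21 at 10 or more reads. Sharing within an antigen was 0.0719 with clusters (exact permutation p = 0.0476) and 0.0108 to 0.0768 without single animals. For IGHV genes between classes, 10 of 66 tested passed with TMM and 21 of 63 with clusters. Against 12 to 17 residues 2 of 54 passed, and at 2 or more reads 5 of 47. With 66 genes tested, the count was 2 in DESeq2, 5 with class totals and 5 with no animal block. Without single animals it was 5 to 11, of 63 to 66 tested. IGHV5-54 and IGHV6-13 turned to log2 values of 0.15 and 0.28 in DESeq2. Between antigens, 1 of 36 tested became 0 of 21 at 2 or more reads and 2 of 81 with no filter. With 36 genes tested, the count was 3 in DESeq2 and 2 with class totals. Without single animals it was 1 to 7, of 34 to 36 tested (2 of 35 without HuD2, 7 of 34 without DNP2). At 20 or more residues the count was 1 of 19 tested, and the gene was IGHV5-29, higher in HuD. IGHV1-43 had too few CDR3 of that length for the filter and was not tested there, as 61 of its 111 long CDR3 had 18 residues. Same-numbered animals are different animals, and their deviations correlated at 0.005 to 0.301. With the replicate block, 3 of 36 IGHV genes passed between antigens, which were IGHV1-43, IGHV5-29 and IGHV5S11. The share differences stayed at 1.26 and 1.23 (exact sign-flip permutation over 5 pairs, which cannot go below p = 0.0625). The single-read share at 2 or more reads and sharing within an antigen at 20 or more residues gave no value. Depth limits statements on CDR3 of 25 or more residues and on IGHV genes with few long CDR3.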
